A study of Drosophila melanogaster with 14 samples.

Results

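The dystrophin complex of Drosophila was followed here through 8 genes, picked by symbol as parts of the complex: Dys (dystrophin), Dg (dystroglycan), Dyb (a dystrobrevin), Syn1 and Syn2 (syntrophin-like adaptors, unrelated to synapsin) and the sarcoglycans Scgalpha, Scgbeta and Scgdelta. They are all of the members sought and are 8 of the 17252 genes listed in both tables, with 17890 genes listed for flight muscle and 17490 for wing discs. RNA-seq of indirect flight muscles (IFM) dissected from pupae at 96 h after puparium formation (APF) was compared between homozygous Tet null flies, which lack the TET dioxygenase, homozygous catalytic-dead Tet CD flies, whose GFP-tagged TET cannot oxidise its substrates, Tet-GFP knock-in flies, the tagged control of the Tet CD line, and the w1118 wild type, with 2 libraries in each of the 4 groups. Wing discs of late larvae (the third instar) were compared between Tet null flies and w1118 with 3 libraries each. Flies were raised on standard food, and Tet CD and Tet-GFP flies both carry GFP in the Tet gene. The number of animals in a library and their sex were not given in the sources used here. Libraries of a group are called biological replicates by the submitters, and the p-values below measure the spread between them.

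Dystroglycan is a transmembrane receptor that binds laminins and the heparan sulphate proteoglycan perlecan outside the cell, and its short intracellular tail holds dystrophin, a long spectrin-repeat protein that reaches to the actin cytoskeleton. Dystrobrevin and the syntrophins bind at the dystrophin C terminus and bring signalling proteins to the membrane, while the sarcoglycans form a transmembrane subcomplex beside dystroglycan. In humans, loss of dystrophin or of a sarcoglycan causes muscular dystrophy. In flies, Dys and Dg mutants show age-dependent muscle degeneration and defects in epithelial polarity and in wing veins, so that the complex is studied in both tissues examined here.

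In the dm6 build, Dys lies on the plus strand of chromosome arm 3R, 19461085 to 19597288, and its 12 annotated transcripts merge to 21204 bases of exon. Dg is on the minus strand of 2R (16081176 to 16098564), Dyb on the plus strand of 2R (12437345 to 12452916) and Syn2 on the plus strand of 2R (16552258 to 16558486). Scgalpha occupies the plus strand of 2L from 8303429 to 8305376. Syn1, on the minus strand of 3L (21745359 to 21770534), shares 520 exonic bases with CG7370 on the other strand, and Scgbeta, on the minus strand of 3R (12421236 to 12422429), shares 16 bases with pps. Scgdelta lies on the minus strand of X (1735945 to 1754065), and 395 bases of its exons overlap an annotated roo transposable element on the same strand. Counts were per gene, so isoforms of a gene, such as the long and short dystrophins, cannot be separated, and whether the counting used strand was not given in the sources used here.

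Libraries held 33.3 to 46.7 M reads on genes in flight muscle and 16.9 to 31.5 M in wing discs. Markers of the labelled tissues fitted the labels: the 6 flight muscle markers summed to between 31116 and 40205 RPKM (reads per kilobase of exon per M reads) in the IFM libraries and to at most 64.8 RPKM in the discs. Tet null IFM library 1 has a wing disc in its tissue field but was placed in IFM by title, age and table, and its muscle markers summed to 40205 RPKM. Tet, the targeted gene, was at 0.405 and 0.219 RPKM in Tet null IFM, 4.19 and 3.77 in Tet CD IFM, 3.96 and 3.66 in Tet-GFP IFM and 2.04 and 3.01 in w1118 IFM. In discs it was at 0.39, 0.475 and 0.352 RPKM in Tet null and 203.2, 147.8 and 204.6 RPKM in w1118. The second w1118 disc library stood apart before any comparison: 976 genes were listed at 0 there against 2376 to 3978 in the other discs, and 119 odorant and gustatory receptor genes, which neither tissue is known for, had a median of 2.12 RPKM there against 0.0273 to 0.132. The second Tet null IFM library had 1833 genes at 0 against 3285 to 4801 in the other IFM libraries, with a median receptor level of 0.087 RPKM. Fold changes of the members in discs are therefore given with and without w1118 library 2.

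In wild-type IFM the receptor and its cytoplasmic link led the complex. Dg averaged 6.38 ± 0.709 RPKM, Dys 2.90 ± 0.322 and Scgdelta 2.04 ± 0.465 (SD, n = 2), and the libraries of these 3 genes did not overlap one another. Syn2 (0.867 ± 0.0315) and Scgalpha (0.766 ± 0.229) overlapped, Dyb followed at 0.561 ± 0.00928, and Scgbeta (0.254 ± 0.204) and Syn1 (0.146 ± 0.0267) were lowest and overlapped. Dg was the highest and Dys the next in all 4 IFM groups, and Dg stood 1.41 to 2.58 times as high as Dys in the 8 libraries. The order below them was not kept between groups. Syn2 ranked 3rd in Tet null IFM, ahead of every sarcoglycan, while Scgdelta, 3rd in w1118, ranked 7th there.

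**Figure D1:**
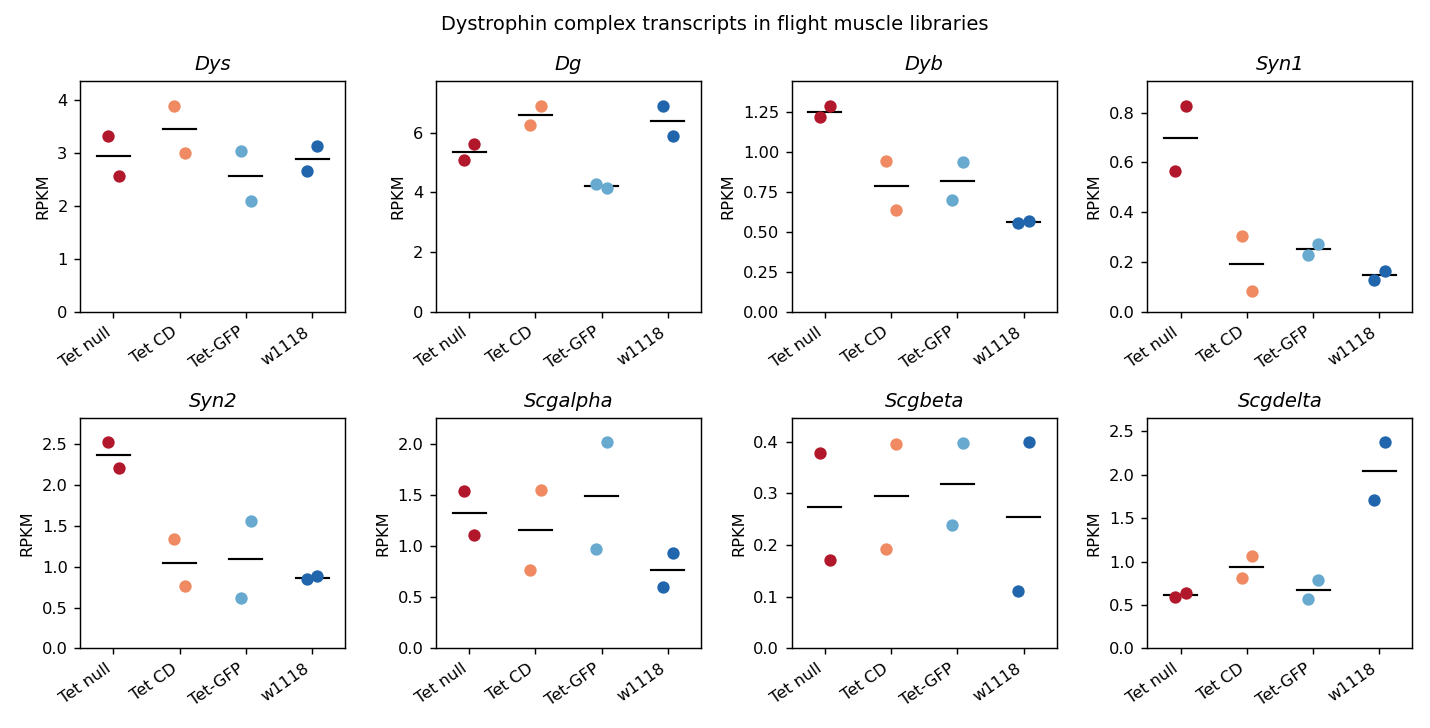
RPKM of each of the 8 genes (vertical axes, starting at 0) in the 2 flight muscle libraries of each group, Tet null, Tet CD, Tet-GFP and w1118, with points for libraries and bars for group means. Syn1 and Syn2 are highest in both Tet null libraries, and Scgdelta is highest in both w1118 libraries, at 1.71 and 2.37 RPKM.

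Dys, the spectrin-repeat core of the complex, did not differ beyond its spread between these groups. It was at 3.34 and 2.57 RPKM in Tet null IFM and 2.67 and 3.13 RPKM in w1118 IFM, from 2151 to 3300 reads, and the groups overlapped. The log2 fold change, here and below on the log2(RPKM + 0.5) scale that understates changes of low genes, was 0.02 with a 95% interval of -0.55 to 0.58 (SE 0.21, limma adjusted p = 0.97). Without Tet null library 1 the estimate was -0.14.

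Of the 6 members that passed the filter of a mean of at least 0.5 RPKM, 2 passed the test in Tet null against w1118 IFM (limma adjusted p under 0.05 and a change over 1.5-fold), where 8.29% of all 8466 genes tested passed. Syn2 was the 1 member higher (5.5% of all genes tested were called higher) and Scgdelta the 1 member lower (2.79% called lower). At an unadjusted p under 0.05 stood 3 of the 6, Dyb besides, against 26.8% of all genes tested. The median log2 fold change was 0.27 over the 6 members and -0.03 over all genes tested. Libraries did not overlap for 5 of the 6, against 59.2% of all genes tested.

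Syn2, an adaptor that binds dystrophin through its C-terminal region and carries a PDZ domain for signalling proteins, was at 2.52 and 2.21 RPKM in Tet null IFM and 0.845 and 0.889 RPKM in w1118 IFM, or 436 and 403 reads against 119 and 118. Both Tet null libraries were above both of w1118, with a ratio of group means of 2.73. The log2 fold change was 1.07 (SE 0.18, limma adjusted p = 0.043). Tet CD IFM had 1.33 and 0.769 RPKM, and Tet-GFP IFM 0.621 and 1.56 RPKM, so that these groups overlapped each other and all of their libraries were below Tet null. Leaving out any 1 of the 4 Tet null and w1118 libraries ended the call, with adjusted p between 0.10 and 0.21 and log2 fold changes between 0.99 and 1.14, and so did a fit of all 4 IFM groups (adjusted p = 0.0999). Each fit without a library has a group of 1, assumed to vary like the other group, and such fits called 0 to 47 genes in all.

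Its paralog Syn1 was scarce, below the filter, and was therefore not tested on the RPKM scale. It was at 0.567 and 0.827 RPKM in Tet null IFM (99 and 152 reads) and 0.127 and 0.165 RPKM in w1118 IFM (18 and 22 reads), a ratio of means of 4.79. The Tet CD libraries had 0.302 and 0.082 RPKM and the Tet-GFP libraries 0.229 and 0.273 RPKM. Both Tet null libraries thus lay above the other 6. With the unit turned back into reads and fitted by limma-voom, an alternative chosen after the data were seen, Syn1 was called at 2.34 on the log2 scale (SE 0.57, adjusted p = 0.030) beside Syn2 (1.53, adjusted p = 0.018) and Scgdelta (-1.61, adjusted p = 0.027), so 3 of 8 members passed where 11.2% of all genes did. Exonic bases shared with CG7370 make the Syn1 count less certain than that of Syn2.

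Dyb, which pairs with dystrophin through coiled coils, was at 1.21 and 1.29 RPKM in Tet null IFM and 0.555 and 0.568 RPKM in w1118 IFM (226 and 252 reads against 84 and 81). The groups did not overlap and the means stood in a ratio of 2.23, but the log2 fold change of 0.72 (SE 0.18) missed the threshold with an adjusted p of 0.091. Tet CD IFM had 0.94 and 0.633 RPKM and Tet-GFP IFM 0.695 and 0.936 RPKM, all 4 between the Tet null and w1118 libraries.

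Neuronal and glial transcripts moved with the same libraries. The 7 neuron markers summed to 63.1 and 54.2 RPKM in Tet null IFM, 28.5 and 17.8 in Tet CD IFM, 7.71 and 23.4 in Tet-GFP IFM and 10.04 and 9.59 in w1118 IFM. None was at 0 in any library, and 6 of the 7 were called higher in Tet null than in w1118 IFM. The other, elav, overlapped between these groups, at 1.32 and 2.09 RPKM in Tet null IFM and 1.40 and 1.45 RPKM in w1118 IFM. The 6 glia markers summed to 307.8 and 191.3 RPKM in Tet null IFM, 110.8 and 57.6 in Tet CD IFM, 96.0 and 82.1 in Tet-GFP IFM and 116.2 and 75.5 in w1118 IFM, again with none at 0, and 2 of the 6 were called higher in Tet null than in w1118 IFM. Within Tet CD and Tet-GFP, the library with more neuron marker RNA also had more Syn2, Syn1 and Dyb. Within Tet null it had more Syn2 but less Syn1 and Dyb. Within w1118, where the sums were close, it had less of each. Whether such cells had a part in the levels of Syn1, Syn2 and Dyb was not tested, and in bulk tissue more cells of a type and more RNA per cell cannot be told apart.

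**Figure D2:**
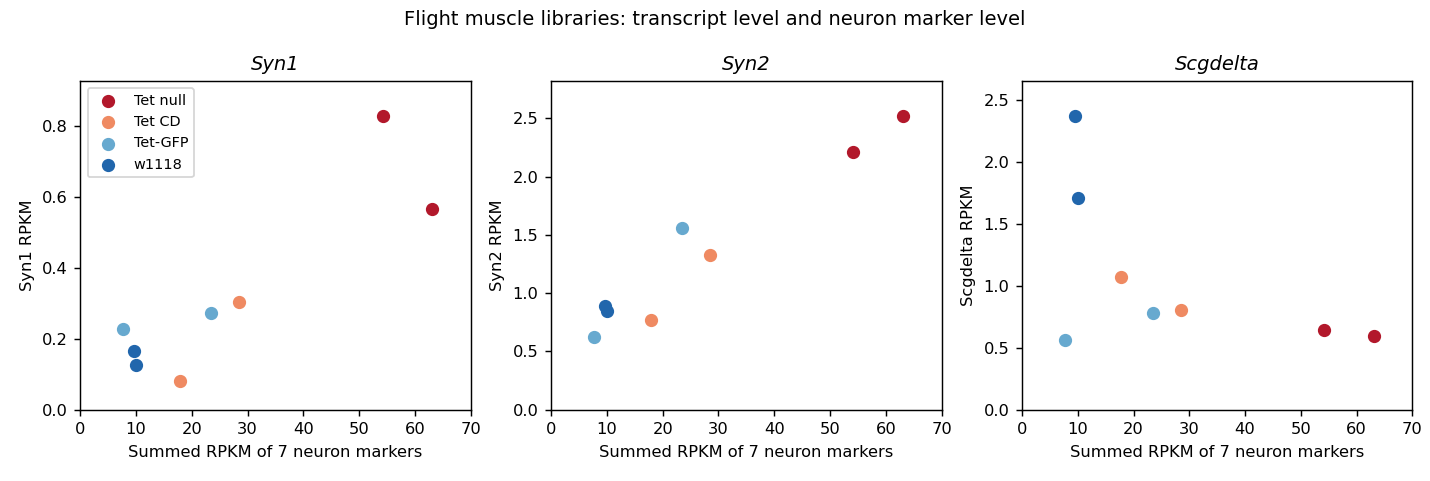
RPKM of Syn1, Syn2 and Scgdelta (vertical axes) against the summed RPKM of 7 neuron markers (horizontal axis) in the 8 flight muscle libraries, coloured by group. The 2 Tet null libraries lie at 54.2 and 63.1 RPKM of neuron markers with the highest Syn1 and Syn2, while Scgdelta in the Tet-GFP library with 7.71 RPKM of neuron markers was as low as in Tet null.

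Among the sarcoglycans, Scgdelta was the lone member called lower. It was at 0.593 and 0.641 RPKM in Tet null IFM and 1.71 and 2.37 RPKM in w1118 IFM, or 108 and 123 reads against 254 and 331, a mean 3.31 times higher in w1118. The log2 fold change was -1.17 (SE 0.21, limma adjusted p = 0.047). With any 1 of the 4 libraries left out the log2 fold change was -1.36 to -0.99 and the call was lost (adjusted p 0.076 to 0.22). As for Syn2, these fits rest on a group of 1 library. The call was also lost at a pseudocount of 1 (adjusted p = 0.052), while a fit of all 4 IFM groups kept it (adjusted p = 0.038).

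The low Scgdelta level was not particular to Tet null IFM. Tet CD IFM had 0.81 and 1.07 RPKM and the tagged control Tet-GFP 0.564 and 0.784 RPKM. All 6 libraries of these lines and of Tet null were thus below both w1118 libraries. An effect of the Tet alleles and other differences between w1118 and these lines cannot be told apart. The part of the 395 exonic bases shared with a roo element in the Scgdelta count was not tested. Tet null against Tet-GFP IFM gave a log2 fold change of -0.07 with a 95% interval of -0.63 to 0.50 (SE 0.21, limma adjusted p = 0.85). Tet-GFP against w1118 IFM gave -1.11 (SE 0.23, unadjusted p = 0.0085), which missed the threshold after adjustment over all genes (limma adjusted p = 0.32). Both of those comparisons share libraries with the one above. The 3 tendon markers, of which Tsp was the most abundant in w1118, summed to 3.13 and 2.80 RPKM in Tet null IFM, 10.4 and 5.81 in Tet CD IFM, 3.22 and 3.75 in Tet-GFP IFM and 9.48 and 6.15 in w1118 IFM, with none at 0 and none called in these comparisons. The 4 tracheal markers summed to 147.0 and 69.2 RPKM in Tet null IFM, 71.2 and 101.6 in Tet CD IFM, 73.8 and 26.7 in Tet-GFP IFM and 122.1 and 125.1 in w1118 IFM, also with none at 0 or called. The part of either in the Scgdelta level was not tested.

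Scgdelta supplied 23.6% and 33.4% of the summed sarcoglycan RPKM in Tet null IFM, 45.7% and 35.5% in Tet CD IFM, 31.8% and 24.6% in Tet-GFP IFM and 70.6% and 64.1% in w1118 IFM. In IFM it was the larger part of sarcoglycan RPKM in the w1118 libraries only. Scgalpha was at 1.54 and 1.11 RPKM in Tet null IFM and 0.604 and 0.929 RPKM in w1118 IFM, with a log2 fold change of 0.53 that missed the threshold (SE 0.24, limma adjusted p = 0.25). In Tet CD IFM it was at 0.771 and 1.55 RPKM and in Tet-GFP IFM at 0.97 and 2.01 RPKM, and each of these spreads took in both Tet null values. Scgbeta rested on 5 to 21 reads per IFM library, 0.377 and 0.171 RPKM in Tet null and 0.11 and 0.398 RPKM in w1118, with overlapping groups and too few reads to compare.

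Dg was at 5.08 and 5.61 RPKM in Tet null IFM and 6.89 and 5.88 RPKM in w1118 IFM, a log2 fold change of -0.23 (95% interval -0.78 to 0.31, limma adjusted p = 0.52). Catalytic-dead muscle stood on the other side of its control: Dg was at 6.25 and 6.90 RPKM in Tet CD IFM and 4.27 and 4.13 RPKM in Tet-GFP IFM. The Tet CD mean was 1.57 times the Tet-GFP mean, with a log2 fold change of 0.59 (SE 0.15, unadjusted p = 0.019, limma adjusted p = 0.66). Tet-GFP was also below w1118, at -0.55 (SE 0.17, unadjusted p = 0.033, limma adjusted p = 0.43), and both Tet-GFP libraries were the lowest of the 8 for Dg. Fat body markers, with Yp1 at most 0.0586 RPKM, summed to 65.7 and 123.1 RPKM in Tet CD IFM and 36.8 and 27.4 in Tet-GFP IFM. These sums were 51.8 and 9.77 RPKM in Tet null IFM and 27.8 and 56.9 in w1118 IFM. Tendon marker sums were also higher in Tet CD than in Tet-GFP IFM. The part of either in the IFM level of Dg was not tested.

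No member was called in Tet CD against Tet-GFP IFM, and neither was any gene (0% of 8141 genes tested by limma, 494 of them at an unadjusted p under 0.05, and 0% by limma-voom). Dg was the 1 member of 6 tested at an unadjusted p under 0.05, against 6.07% of genes. Libraries did not overlap for Dg and Scgdelta, 2 of the 6 tested, against 34.2% of all genes tested. Syn2 (0.01, 95% interval -1.12 to 1.13), Scgalpha (-0.25, -1.38 to 0.88) and Dyb (-0.04, -0.68 to 0.60) had intervals that took in changes over 1.5-fold either way, and Dys gave 0.37 (-0.30 to 1.05). Syn1 was at 54 and 13 reads in Tet CD IFM against 33 and 41 in Tet-GFP IFM.

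Tet null muscle set against the tagged control instead of w1118 gave no member call either, where 0.0119% of 8369 genes were called. That background is 1 gene and unstable, since 254 genes were called without Tet-GFP library 1 and 277 with all 4 IFM groups in 1 fit, with 0 members in both. No member was at an unadjusted p under 0.05, while 26.6% of all genes tested were, and limma-voom called 0% of genes. Syn2 had the largest log2 fold change of the 6 members, 0.91 (SE 0.34, limma adjusted p = 0.19), which was 0.48 without Tet-GFP library 1 and 1.35 without Tet-GFP library 3. Dyb gave 0.42 (SE 0.19, adjusted p = 0.24). Libraries of 3 of the 6 did not overlap, Dg, Dyb and Syn2, all higher in Tet null, against 63.1% of all genes tested. Between Tet-GFP and w1118 IFM no member and no gene was called (0% of 8156 genes tested by limma, 843 of them at an unadjusted p under 0.05; by limma-voom 0 members and 0.0599% of genes). Scgdelta and Dg were the 2 members of 6 at an unadjusted p under 0.05, against 10.3% of all genes, and 4 of the 6 did not overlap, against 42.9% of all genes.

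**Figure D3:**
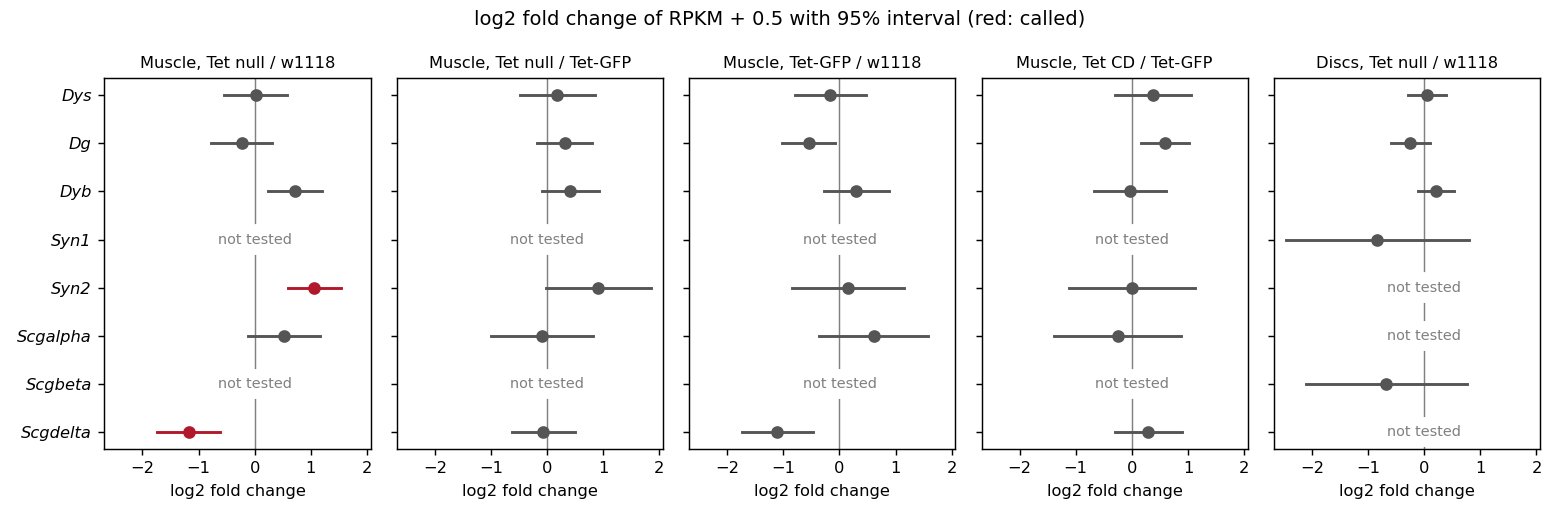
log2 fold changes of RPKM + 0.5 (points) with 95% intervals (lines) for the 8 genes, the first-named group over the second, in 4 flight muscle comparisons and the wing disc comparison. The 2 red points are the members called, Syn2 at 1.07 and Scgdelta at -1.17 in Tet null against w1118 muscle, and genes under the filter are marked as not tested.

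The difference between the null effect and the catalytic effect was tested directly over the 8 IFM libraries. No member was called, where 0.683% of 8344 genes were, and 3 of the 6 tested had an unadjusted p under 0.05 (18.7% of all genes), while limma-voom called none of 8 members and 0.578% of genes. Scgdelta came nearest, at -1.47 (SE 0.29, limma adjusted p = 0.088), followed by Dg at -0.82 (SE 0.23, adjusted p = 0.15) and Dyb at 0.76 (SE 0.27, adjusted p = 0.22). A difference in the response of the complex to loss of TET and to loss of its catalytic activity was therefore not shown.

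Wing discs held another make-up of the complex. Dys, Dg and Dyb made up 98.7% to 99.3% of the summed RPKM of the 8 genes in the 5 discs other than w1118 library 2 and 90.2% in that library, against 58.8% to 76.5% in IFM. The tables of the tissues were normalised separately, so these levels are set side by side without a test. Dys averaged 31.0 RPKM in Tet null discs and 2.95 in Tet null IFM, and Dg 62.7 and 5.35, ratios of 10.5 and 11.7. Dyb averaged 15.1 RPKM in Tet null discs and 1.25 in Tet null IFM, a ratio of 12.1. Between w1118 discs and w1118 IFM the ratios were 10.4 for Dys, 11.8 for Dg and 23.1 for Dyb, and 11.4, 12.8 and 23.3 without w1118 disc library 2. Scgdelta, Syn2 and Scgalpha, each with few disc reads outside that library, ran the other way. Their disc to IFM ratios in w1118 were 0.344, 0.583 and 0.858, and 0.0408, 0.149 and 0.176 without it. In Tet null they were 0.329, 0.0262 and 0.0918. Scgdelta was at 0.167 and 0 RPKM in w1118 disc libraries 1 and 3, and averaged 2.04 RPKM in w1118 IFM. Scgbeta was higher in discs by each of these ratios (1.35 to 4.72). Syn1 was higher in w1118 discs but not in Tet null discs (0.342). The median of all genes was itself higher in discs. It was 1.14 and 0.973 RPKM in w1118 disc libraries 1 and 3, and 0.363 and 0.306 RPKM in w1118 IFM. By rank Dys, Dg and Dyb differed less: Dys stood above 87.1% of genes in w1118 discs and 80.2% in w1118 IFM. Dg stood above 95.7% and 88.5%, and Dyb above 74.1% and 56.3%. Syn2, Scgalpha and Scgdelta ranked far lower in w1118 discs. They stood above 11.02%, 16.4% and 18.5% of genes there, against 62.7%, 60.9% and 75.6% in w1118 IFM. Syn1 (42.1% and 38.98%) and Scgbeta (41.4% and 45.9%) stood closer between the tissues. The disc ranks include w1118 library 2.

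**Figure D4:**
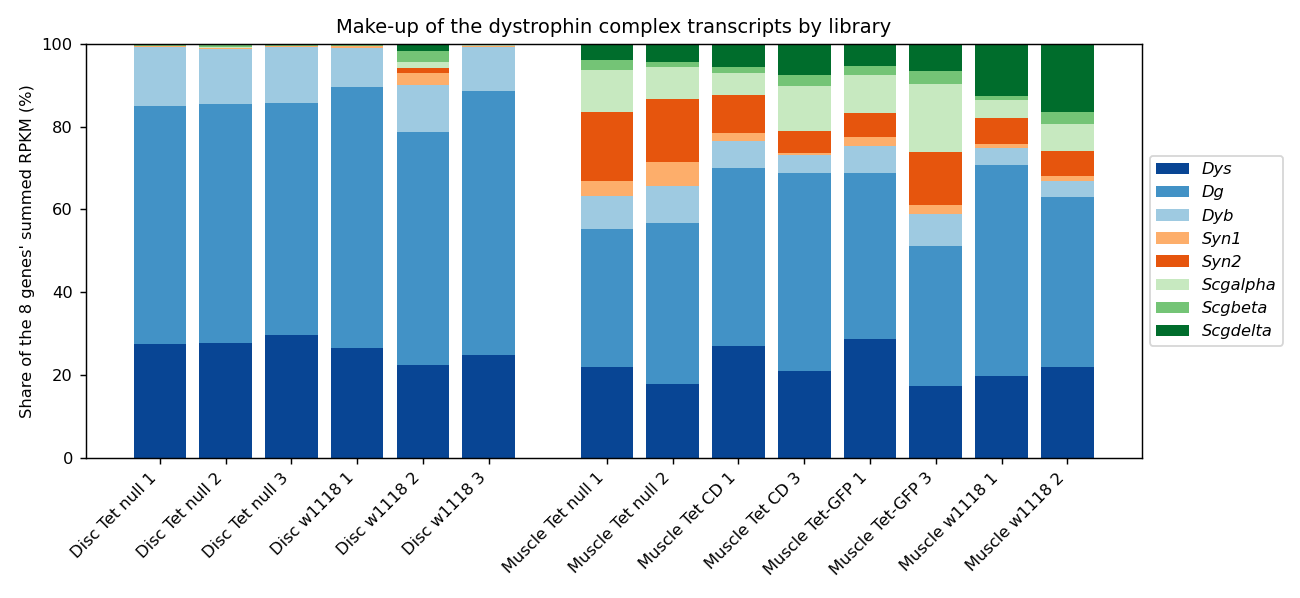
Share of the summed RPKM of the 8 genes taken by each gene (stacked bars, in percent) in each of the 14 libraries, wing discs on the left and flight muscle on the right. Blue shades (Dys, Dg and Dyb) fill 98.7% to 99.3% of the disc bars apart from w1118 library 2 and 58.8% to 76.5% of the muscle bars.

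In discs 5 members passed the filter and none was called in Tet null against w1118, where 4.15% of 12631 genes tested were called. By limma 0 members had an unadjusted p under 0.05 against 17.7% of genes, and limma-voom called 0 of 8 against 1.91% of genes. Dyb alone did not overlap between the groups (1 of 5 tested, against 25.4% of all genes): it was at 16.2, 14.6 and 14.4 RPKM in Tet null discs and 12.5, 12.7 and 13.7 RPKM in w1118 discs. Its log2 fold change was 0.21 (95% interval -0.11 to 0.53, limma adjusted p = 0.52), and 0.19 without w1118 library 2 (adjusted p = 0.32). In that fit 3 members passed the filter and 0 were called, with 289 genes called in all. Dys was at 31.1, 30.4 and 31.7 RPKM in Tet null discs and 34.3, 24.6 and 31.8 RPKM in w1118 discs, with a log2 fold change of 0.05 (-0.28 to 0.39), and -0.09 without w1118 library 2.

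Dg was at 64.7, 63.3 and 60.2 RPKM in Tet null discs and 81.8, 62.3 and 81.9 RPKM in w1118 discs. Library 2 of w1118 fell among the Tet null libraries while the other 2 were above them. With all 6 libraries the log2 fold change was -0.25 (SE 0.17, limma adjusted p = 0.47). Without w1118 library 2 it was -0.38 (SE 0.07, adjusted p = 0.047), and on reads by limma-voom with all 6 it was -0.43 (SE 0.07, adjusted p = 0.0060), in each case under the 1.5-fold limit, so Dg was not called. Markers of other disc cells differed between the same groups: the 5 muscle progenitor markers summed to 31.6 to 38.2 RPKM in Tet null discs and 55.5 to 80.3 RPKM in w1118 discs, 2 of the 5 were called lower, and none was at 0. Without w1118 library 2 the w1118 sums were 65.4 and 80.3 RPKM. The 4 fat body markers summed to 75.3 to 79.3 RPKM in Tet null discs and 10.3 to 30.5 RPKM in w1118 discs, and 3 of 3 tested were called higher, Yp1 being at 0 in Tet null library 3. Hemocyte marker sums lay on the same side, at 16.6 to 35.7 RPKM in Tet null and 6.70 to 16.6 RPKM in w1118. Tracheal marker sums did too, at 506.9 to 568.0 RPKM in Tet null and 266.4 to 398.2 RPKM in w1118. In each of these lists 2 of 4 were called higher, and none was at 0. The tracheal marker trh overlapped between the groups, at 16.1, 15.2 and 17.6 RPKM in Tet null and 18.9, 15.1 and 17.1 RPKM in w1118. Of 4 disc epithelium markers tested 1, rn, was called higher, with sums of 431.1 to 480.3 RPKM in Tet null and 307.5 to 434.9 RPKM in w1118. Of 3 tendon markers 1, sr, was called lower, with sums of 18.7 to 21.5 RPKM in Tet null and 25.1 to 30.0 RPKM in w1118. Their part in the Dg level was not tested.

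The syntrophins and sarcoglycans were at the edge of detection in discs. In the 5 libraries other than w1118 library 2, Syn1 had 15 to 34 reads, Syn2 3 to 13, Scgbeta 9 to 16, Scgalpha 0 to 8 and Scgdelta 0 to 35. Scgalpha had 0 reads in Tet null disc library 3, which allows a level of up to 0.058 RPKM (3 reads), and Scgdelta 0 reads in w1118 disc library 3, which allows up to 0.034 RPKM. In w1118 library 2 the same 5 genes had 64 to 261 reads, or 1.26 to 3.07 RPKM, near the receptor gene median of 2.12 RPKM in that library. The wide disc estimates of Syn1 (-0.83, SE 0.78) and Scgbeta (-0.67, SE 0.69) rest on that library, and without it neither passed the filter.

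**Figure D5:**
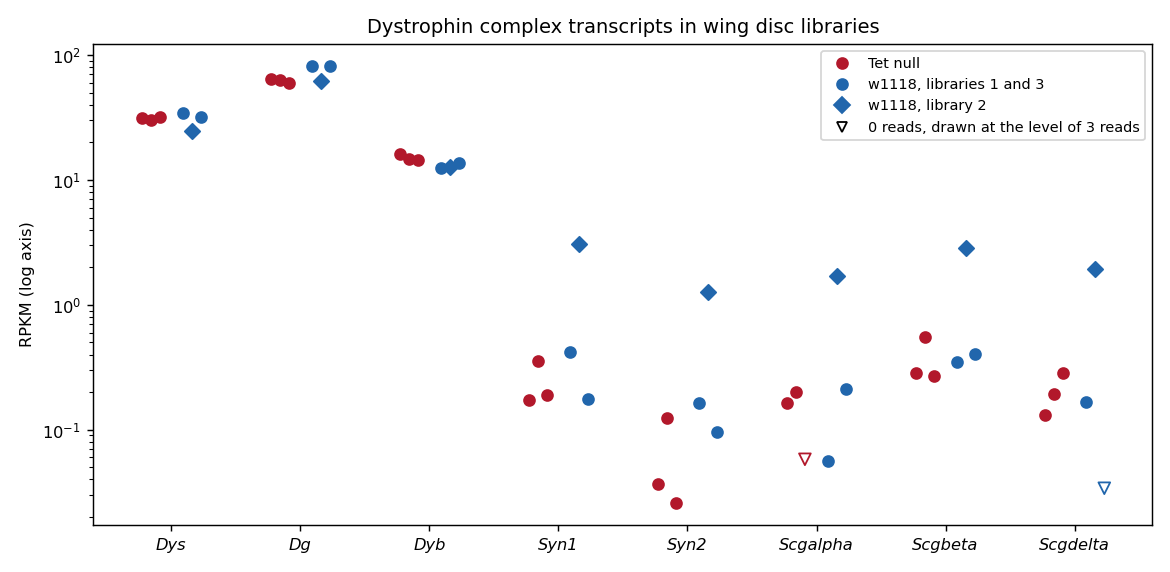
RPKM (log axis) of the 8 genes in wing discs, Tet null left of w1118 for each gene, with points for libraries, diamonds for w1118 library 2 and open triangles for 0 reads drawn at the level of 3 reads. Dys, Dg and Dyb lie between 12.5 and 81.9 RPKM, and the other 5 genes are below 0.6 RPKM in every library but w1118 library 2.

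Genes acting with the complex were read from lists of ligands, modifying enzymes, partners and the spectrin skeleton. None of the 13 of 16 tested in Tet null against w1118 IFM was called, where 8.29% of all genes tested were. An unadjusted p under 0.05 was reached by 2 of the 13, against 26.8% of all genes tested. In discs 15 of the 16 were tested and none was called, against 4.15% of all genes tested. There 2 of the 15 were at an unadjusted p under 0.05, against 17.7% of all genes tested. No gene of these lists was called in the other IFM comparisons, where 0% to 0.683% of all genes were. Of the ligands, LanA, a laminin alpha chain, was at 7.54 and 4.57 RPKM in Tet null and 7.63 and 12.2 RPKM in w1118 (-0.67, SE 0.36, limma adjusted p = 0.31). The perlecan gene trol, added after its values were seen, lay the other way by as much: it was at 21.1 and 16.5 RPKM in Tet null IFM and 11.9 and 11.3 RPKM in w1118 IFM (0.67, SE 0.24, adjusted p = 0.17). Against Tet-GFP IFM, at 9.96 and 7.08 RPKM, Tet null gave 1.10 (SE 0.28, adjusted p = 0.14). Of the partners, cv-c, a RhoGAP that acts with dystrophin at the fly neuromuscular junction, was at 5.02 and 3.17 RPKM in Tet null IFM and 4.96 and 6.07 RPKM in w1118 IFM (-0.41, SE 0.28, adjusted p = 0.41). Ank2, an ankyrin of neurons and their synapses, had the largest difference in the spectrin list, at 12.4 and 14.7 RPKM in Tet null IFM and 7.47 and 4.47 RPKM in w1118 IFM (1.15, SE 0.31, adjusted p = 0.098).

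The protein O-mannosyltransferases rt and tw, which in flies add mannose to dystroglycan, were measured well in discs. There rt was at 5.21, 6.20 and 6.04 RPKM in Tet null and 5.95, 5.79 and 6.13 RPKM in w1118, with a log2 fold change of -0.04 (SE 0.18). tw was at 25.3, 24.3 and 25.2 RPKM in Tet null discs and 25.1, 18.6 and 23.5 RPKM in w1118 discs, at 0.16 (SE 0.16). In IFM both were under the filter, rt at 0.00641 to 0.143 RPKM and tw at 0.073 to 0.216 RPKM. Both enzymes, like Dg, stood higher in discs than in IFM in every library. So did the laminin chain LanA, at 77.5 to 106.6 RPKM in discs and 4.57 to 12.2 RPKM in IFM. The median of all genes did as well, at 0.811 to 3.37 RPKM in discs and 0.302 to 0.42 RPKM in IFM.

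Genes whose log2(RPKM + 0.5) ran most like Dys over the 8 IFM libraries were CG10516 (Pearson r = 0.98), Sec13 (0.93), ergic53 (0.91), VhaSFD (0.89) and CG6126 (0.89), out of 8343 compared. Those most like Scgdelta were CG8172 (0.96), lncRNA:CR46494 (0.96), CR46461 (0.95), lncRNA:CR44830 (0.95) and tut (0.95). These are descriptions over libraries that share genotype and preparation, and the highest of many values. Among the complex itself, Scgdelta ran against Dyb (-0.74) and with Dg (0.55), and Dys was close to 0 with Scgdelta (0.0031). As an example, tut was listed at 0 in both Tet null libraries, at 0.461 and 1.04 RPKM in Tet CD IFM, 0.149 and 0.143 RPKM in Tet-GFP IFM and 1.71 and 2.27 RPKM in w1118 IFM.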

How the data were processed

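Values deposited by the authors were RPKM per gene, 1 table per tissue, with decimal commas. The study's methods give paired-end Illumina reads from a low-input kit, trimmed, aligned to dm6 with Hisat2 and counted with HTSeq; the submitters' processing notes name Trimmomatic 0.32, HISAT2 2.1.0, HTSeq 0.11.2, Cufflinks 2.2.1 and DESeq2 1.22.2. RPKM were turned back into reads with merged exon lengths (Ensembl release 115, dm6): of values below 10 reads, 97.8% to 99.4% were whole within 0.02. Depths are sums of these reads, and floors cover counting error only.

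Log2(RPKM + 0.5) was tested pairwise with limma 3.58.1 in R 4.3.3 (eBayes with trend) over genes with a mean of at least 0.5 RPKM, with Benjamini-Hochberg adjustment, and called at adjusted p under 0.05 and over 1.5-fold (no fold limit for the difference of effects). limma-voom on reads (mean of at least 10) was added after seeing the data. The script was tested on simulated data. The Tet CD and Tet-GFP columns are numbered 1 and 3, the labels 1 and 2, so they were matched by group.

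Members, lists and the rule for named genes (all members, Tet, in each list the called genes or the largest change, and the 5 genes most like Dys and Scgdelta) were chosen with earlier results of these data known. Same-numbered disc libraries deviated with r = 0.18, 0.30 and 0.15. Unlike-numbered ones gave r of -0.31 to 0.19, the highest for Tet null library 1 with w1118 library 3. This check therefore did not show that the numbers pair the discs, and the main disc test was unpaired. A replicate block gave 936 calls in place of 524 over all genes and 0 members either way. The tables held no fold-change or p-value columns.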

Additional observations from a re-analysis of the deposited data

Results flagged for a closer look

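Dg and Scgdelta lay in opposite directions under loss of TET and under loss of its catalytic activity, with no overlap between the groups of either comparison. Libraries did not overlap for 59.2% of all genes tested in Tet null against w1118 IFM and 34.2% in Tet CD against Tet-GFP IFM. For Dg the log2 fold change was -0.23 in Tet null against w1118 IFM and 0.59 in Tet CD against Tet-GFP IFM. For Scgdelta it was -1.17 in Tet null against w1118 IFM and 0.29 in Tet CD against Tet-GFP IFM, which was 0.16 to 0.43 with 1 library left out. Both Tet-GFP libraries were themselves below both w1118 libraries for these genes. Dg gave 0.31 in Tet null against Tet-GFP IFM, and the Scgdelta mean in Tet CD IFM was 0.46 times that in w1118 IFM. Tested by limma, the difference between these effects missed the threshold, at -0.82 for Dg (adjusted p = 0.15) and -1.47 for Scgdelta (adjusted p = 0.088), with 2 libraries in each group.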

How the results depend on the processing

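In Tet null against w1118 IFM 2 members were called. That count was 2 at a pseudocount of 0.1 and with median-ratio scaling, and 3 with limma-voom on reads, chosen after seeing the data. It was 1 at a pseudocount of 1, with a minimum mean of 1 RPKM and with eBayes without trend (Syn2 each time), and 1 with all 4 IFM groups in 1 fit (Scgdelta). It was 0 with no filter on low values (92 genes called in place of 702), 0 under treat against a fold of 1.5 (99 genes), 0 with a replicate block (566 genes) and 0 to 0 members with any 1 library left out (0 to 47 genes). Syn2 kept a log2 fold change of 0.85 to 1.53 and Scgdelta of -1.61 to -0.90 over their 14 alternatives, with adjusted p of 0.018 to 0.25 and 0.027 to 0.24. In the other 5 comparisons the count of members called was 0 under every alternative run.

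Values whose sign turned were all of members not called. With limma-voom, Dyb became 0.092 in Tet CD against Tet-GFP IFM, Scgalpha 0.028 and Scgdelta 0.016 in Tet null against Tet-GFP IFM, and Dys -0.13 in Tet null against w1118 discs. At a pseudocount of 1, Syn2 in Tet CD against Tet-GFP IFM was -0.0035. With 1 library left out, Dys ranged from -0.14 to 0.18 in Tet null against w1118 IFM, from -0.042 to 0.40 in Tet null against Tet-GFP IFM, from -0.38 to 0.058 in Tet-GFP against w1118 IFM and from -0.088 to 0.15 in discs. In Tet CD against Tet-GFP IFM, Dyb ranged from -0.21 to 0.14, Syn2 from -0.43 to 0.44 and Scgalpha from -0.64 to 0.14. In Tet null against Tet-GFP IFM, Scgalpha ranged from -0.47 to 0.30 and Scgdelta from -0.20 to 0.070, and Syn2 in Tet-GFP against w1118 IFM from -0.29 to 0.59. The cause was not tested.

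The replicate block moved no disc member past the threshold (936 genes in place of 524) and gave 0 members and 0 genes in Tet CD against Tet-GFP IFM. Same-numbered IFM libraries of Tet null and w1118 deviated with r = 0.086 and those of Tet CD and Tet-GFP with r = 0.47 (column numbers). With 2 pairs each, and no label tying the numbers, neither was taken as paired. The discs were not either, since an unlike-numbered pair there reached r = 0.19. No paired analysis was possible for the other IFM comparisons because their groups share fewer than 2 numbers. Depth limited Scgbeta in IFM and the syntrophins and sarcoglycans in discs.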
